A study of Mus musculus with 21 samples.

Results

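The genes described here encode the enzymes, transporters and regulators of glycolysis and a set of genes of the cellular response to low oxygen. They were listed by name, 33 genes of the 20018 gene symbols that the array's probes could be tied to, and all 33 had a named probe. They comprised 4 glucose and lactate transporters, 9 enzymes of the first stage of glycolysis, 8 of the second stage with the lactate dehydrogenases, 3 regulatory kinases, Hif1a with 2 of its prolyl hydroxylases, and 6 other hypoxia-response genes. The rule that chose them used no difference between groups. Each gene was followed on 21 single-colour Agilent mouse arrays, 3 in each of 7 groups.

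The study dealt with Bach1 and Bach2, related transcription repressors. Bone marrow common lymphoid progenitors (CLPs), which give rise to lymphocytes, came from wild-type (WT) mice or from mice deficient in both Bach1 and Bach2 (DD), and RNA was pooled from mice of each genotype. Multipotent progenitors (MPPs; Lin-, c-kit+, Sca-1+, Flt3mid) were all WT and were pooled from 4 mice per experiment. They were held overnight in SCF (50 ng/ml), IL-3 (5 ng/ml) and IL-6 (10 ng/ml) and infected with a retrovirus that carried GFP alone (MSCV-GFP, the control vector) or Bach2 with GFP (the Bach2 vector). Both of these groups were kept in multilineage culture for 2 d and sorted as GFP+. A further Bach2-vector group had 24 h of multilineage culture and 6 d of B-lineage culture, and its GFP+ B220+ cells were sorted (the B220+ cells). There was no control-vector group under B-lineage culture, so that culture, the sort and the vector cannot be told apart there. Follicular B cells (FoB) from WT or Bach2-knockout (Bach2KO) mice were held with 10 ug/ml anti-mouse IgM (Fab') for 24 h, and no unstimulated B cells were among the samples used here. RNA of CLPs and MPPs went through 2 rounds of amplification and that of FoB through a linear kit. The labels do not give the mice's age or strain or say whether the 3 FoB arrays of a genotype came from separate mice, so p-values measure the spread between these samples, which may be in part technical.

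Glycolysis splits glucose to pyruvate in the cytosol. Glucose enters through GLUT transporters, hexokinases trap it, phosphofructokinases commit it, and lactate dehydrogenase with monocarboxylate transporters disposes of the end product when pyruvate is not oxidised in mitochondria. Many of these genes are targets of hypoxia-inducible factor (HIF), whose alpha subunit HIF-1alpha is marked for destruction in oxygen by prolyl hydroxylases, among them EGLN1 and EGLN3. Lymphocytes raise glycolysis when they are activated and grow.

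Levels are given as log2 of the processed signal minus the log2 of the array's 75th percentile of non-control spots, so that 0 is as bright as that percentile and 1 unit is a doubling. A gene's level is that of its brightest probe, and levels of different genes were not compared, since probes differ in how they bind. Differences are log2 values with the standard error (SE) of limma's moderated fit, and a gene passed where its Benjamini-Hochberg adjusted p over all genes tested was under 0.05. The 75th percentile signal lay between 2071 and 5127 on the CLP and MPP arrays and between 97.3 and 358 on the FoB arrays, and 50.9 to 81.5% of spots were well above background (Agilent's call that a spot exceeds its local background). No gene spot was saturated, and the number of arrays, 3 a group, limits the precision. Since each sample is bulk RNA, fewer cells of a type and less RNA per cell cannot be told apart.

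The Bach2 probe read 3.46, 1.49 and 2.38 in WT CLPs and 1.17, 0.10 and -0.27 in DD CLPs, groups that did not overlap, yet its difference did not pass (-2.11, SE 0.58, adjusted p = 0.999). Bach1 overlapped between them, at 1.87 to 2.17 in WT and 0.88 to 2.41 in DD CLPs. In control-vector MPPs Bach2 read -3.87, -2.96 and -2.15, in Bach2-vector MPPs -0.92, -2.03 and -2.57, and in the B220+ cells -2.75, -2.49 and -4.10, and these overlapped too. Whether these probes lie inside the deleted exons or the vector's Bach2 insert is not given in the sources used here, so overlap on them checks neither label. In FoB the Bach2 probe was at 3.06 to 3.55 in WT and -1.01 to -0.07 in Bach2KO cells (difference -3.76, SE 0.36, adjusted p = 9.2e-04). Cell-type markers were read as summed levels of fixed lists. The 10 B-lineage markers summed to 8.67 to 9.52 in WT FoB and 7.73 to 8.44 in Bach2KO FoB, but to 3.35 to 4.10 in the B220+ cells against 3.07 to 3.76 in control-vector MPPs. Between 7 and 9 of these 10 genes were well above background on the B220+ arrays, and 8 on the control-vector arrays. Against the control vector 4 of the 8 tested lay higher and 4 lower in the B220+ cells, and none passed by limma. The 10 neutrophil markers summed to 8.38 to 8.68 in the B220+ cells and 8.59 to 8.69 in control-vector MPPs. That sum hides changes in both directions, since 2 of the 10 passed higher and 2 lower in the B220+ cells. The B-lineage sums thus overlapped between these groups, and the B220+ group is called by its sort.

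Across the 7 groups the members did not move as one block. Aldoa, the main aldolase, was at 4.33 ± 0.33 (mean ± SD, n = 3 here and below) in WT CLPs, 6.82 ± 0.09 in control-vector MPPs and 8.82 ± 0.47 in WT FoB. With quantile normalization over all 21 arrays these were 4.44, 7.13 and 7.38, so the step to WT FoB shrank. Gapdh was at 6.49 ± 0.35, 7.26 ± 0.07 and 9.09 ± 0.24, an order that did not hold with quantile normalization, where its mean was highest in control-vector MPPs of these 3 groups. Hk2, the inducible hexokinase, had the opposite end point: it stood at 3.59 ± 0.69 in WT CLPs, 5.54 ± 0.22 in control-vector MPPs and 1.75 ± 0.29 in WT FoB. Ldhb, the lactate dehydrogenase subunit that favours pyruvate, was at 3.87 ± 0.41 in WT CLPs and 0.84 ± 0.13 in control-vector MPPs, and it was not well above background on any WT FoB array. FoB RNA was amplified with another kit, and levels set between FoB and the other groups were not tested, since cell type, kit and slide cannot be told apart there.

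**Figure D1:**
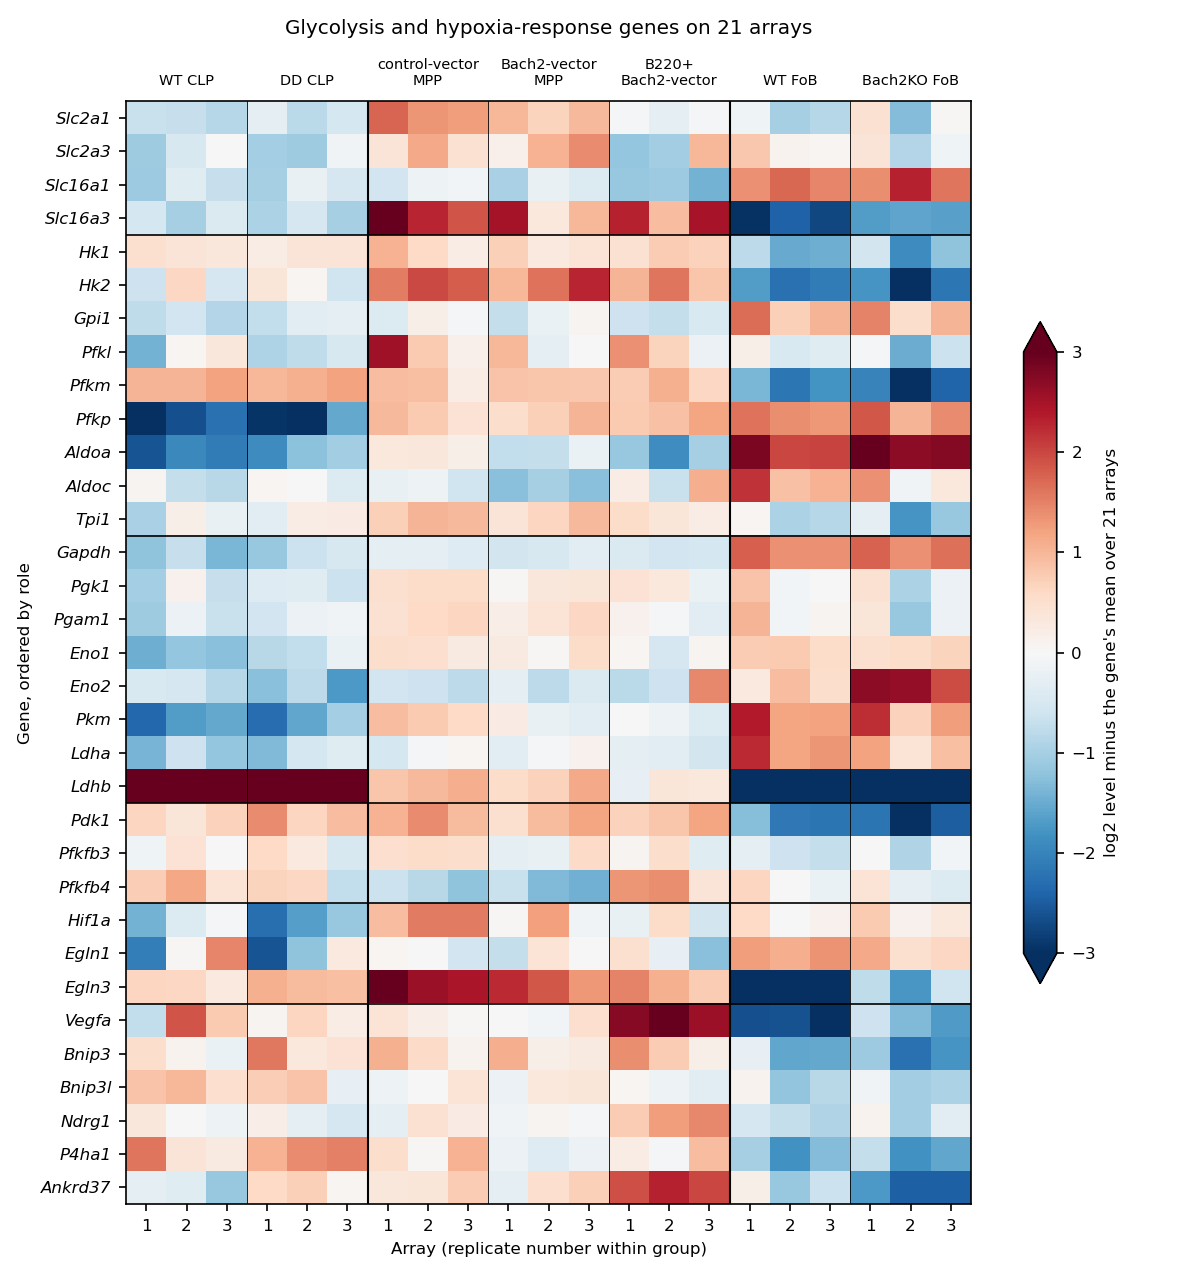
Level of each of the 33 genes (rows, grouped by role: transport, first stage, second stage and lactate dehydrogenases, regulatory kinases, HIF and its hydroxylases, other hypoxia genes) on each of 21 arrays (columns, 3 per group), as log2 level minus that gene's mean over the 21 arrays, with colours ending at 3 and -3. Ldhb is high in both CLP groups and low in FoB, and Egln3 is lowest in WT FoB. Vegfa, Ankrd37 and Pfkfb4 are high in the B220+ cells, and Pfkfb4 is high in WT CLPs too.

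The comparison of Bach2KO with WT FoB asked which genes differ without Bach2 after receptor stimulation. Of 32 members tested, 2 passed, Egln3 and Eno2, both higher in Bach2KO FoB. Over all 13073 genes tested 2.72% passed in either direction (2.21% higher and 0.513% lower). Egln3 met the filter of 3 arrays well above background only through the 3 Bach2KO arrays. Its direction was thus fixed by the filter, and its place in these counts is no support. The remaining 30 did not pass, 13 of the 32 lay higher and 19 lower, and the median difference was -0.13 beside -0.16 over all genes. Ldhb was left out, being well above background on 1 of 6 arrays.

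Egln3 encodes PHD3, a prolyl hydroxylase that is itself a HIF target. Its level was -5.52, -6.47 and -4.76 in WT FoB and -0.32, -1.29 and -0.15 in Bach2KO FoB. No WT array showed it well above background and all 3 Bach2KO arrays did, so the WT level is only an upper bound. The WT level was set to the lowest signal among probes well above background on each array, or the probe's own where that was higher. Against that level Egln3 was 16.7-fold higher in Bach2KO FoB, a value that was not itself tested. The measured difference, which uses the dim WT values, was 5.00 (SE 0.49, adjusted p = 9.2e-04 by limma), and a second Egln3 probe gave 4.44. With normexp background correction, which lifts dim spots, the difference was 1.89 and still passed. Leaving out Bach2KO replicate 1, 2 or 3 left Egln3 well above background on only 2 arrays, so that it was no longer tested. Eno2, a second-stage enolase best known from neurons, read -3.16, -2.53 and -2.93 in WT and -0.77, -0.83 and -1.50 in Bach2KO FoB. The groups did not overlap and the difference was 1.84 (SE 0.34, 3.58-fold, adjusted p = 0.0237). The Eno2 call did not hold when any 1 WT array, or Bach2KO replicate 2 or 3, was left out, where its adjusted p lay between 0.050004 and 0.112, nor with normexp (0.96, adjusted p = 0.248). The ubiquitous enolase, Eno1, was at 6.77 ± 0.14 and 6.63 ± 0.09, a difference of -0.14 (SE 0.28, adjusted p = 0.878).

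The 250 bases before the start sites of these 2 genes are shown because these genes carry both called changes in FoB, and they differ in whether they hold the core letters of the HIF binding site. Capitals mark ACGTG or GCGTG on either strand (CACGT or CACGC on the other). The coordinates and letters are those of RefSeq on GRCm38.p6.
Egln3 (chr12:54203875-54204124, minus strand): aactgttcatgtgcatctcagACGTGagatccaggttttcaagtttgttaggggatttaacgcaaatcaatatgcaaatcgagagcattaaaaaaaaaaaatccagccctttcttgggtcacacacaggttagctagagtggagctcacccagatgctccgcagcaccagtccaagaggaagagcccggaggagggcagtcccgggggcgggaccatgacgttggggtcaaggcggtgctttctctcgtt
Eno2 (chr6:124769674-124769923, minus strand): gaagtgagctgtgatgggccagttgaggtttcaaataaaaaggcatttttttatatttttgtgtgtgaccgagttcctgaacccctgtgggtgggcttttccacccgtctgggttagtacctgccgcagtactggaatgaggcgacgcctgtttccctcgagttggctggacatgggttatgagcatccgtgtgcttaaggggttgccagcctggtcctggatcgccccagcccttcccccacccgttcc
The Egln3 window held 1 match and the Eno2 window none, which says only whether these letters lie in the window.

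A further pair of hypoxia genes lay apart between the genotypes, in opposite directions, without passing. Vegfa, the angiogenic growth factor, was at -1.47, -1.46 and -2.50 in WT and 0.54, -0.17 and -0.54 in Bach2KO FoB (1.75, SE 0.42, adjusted p = 0.0727), and its second probe gave 1.82. Ankrd37, an ankyrin-repeat gene regarded as a HIF target, was at 1.37, 0.06 and 0.57 in WT and -0.52, -1.23 and -1.25 in Bach2KO FoB (-1.67, SE 0.41, adjusted p = 0.0808). Neither pair of groups overlapped. Over the members tested, 4 did not overlap on the higher side, beside 8.12% of all genes, and 1 on the lower side, beside 10.6%. The 4 were Egln3, which was tested only through its high group, and Eno2, Vegfa and Slc16a3. Slc16a3, the lactate exporter MCT4, stood between -2.29 and -1.74 in WT and between -0.99 and -0.90 in Bach2KO FoB (1.08, SE 0.30, adjusted p = 0.122).

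WT and Bach2KO FoB arrays with the same replicate number deviated together, so the comparison was also fitted with the replicate number as a block, and this changed the calls. With the block 11 members passed, 5 higher and 6 lower. Vegfa (adjusted p = 2.9e-05), Slc16a3 (adjusted p = 0.00142) and Aldoa (0.62, adjusted p = 0.0376) joined Egln3 and Eno2 on the higher side. On the lower side were Ankrd37 (adjusted p = 3.4e-05), Pfkm, the muscle-type phosphofructokinase (-0.94, adjusted p = 0.00937), Aldoc (-0.83, adjusted p = 0.00794), Ldha (-0.74, adjusted p = 0.0201), Pdk1, a kinase that keeps pyruvate out of the TCA cycle (-0.73, adjusted p = 0.0249), and Pgam1 (-0.66, adjusted p = 0.0386). The same block raised the count over all genes from 356 to 2980, or 22.8% of the genes tested. With the slide as the block 6 members passed, beside 9.15% of all genes, namely Egln3, Eno2, Vegfa, Ankrd37, Slc16a3 and Aldoc. Within slide 1, with 1 array of each genotype, the differences were 2.39 for Eno2, 2.02 for Vegfa and -1.89 for Ankrd37. Within slide 2, with 2 of each, they were 1.56, 1.62 and -1.56 in the same order. Egln3 has only a bound in WT FoB and is left out of these values.

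**Figure D2:**
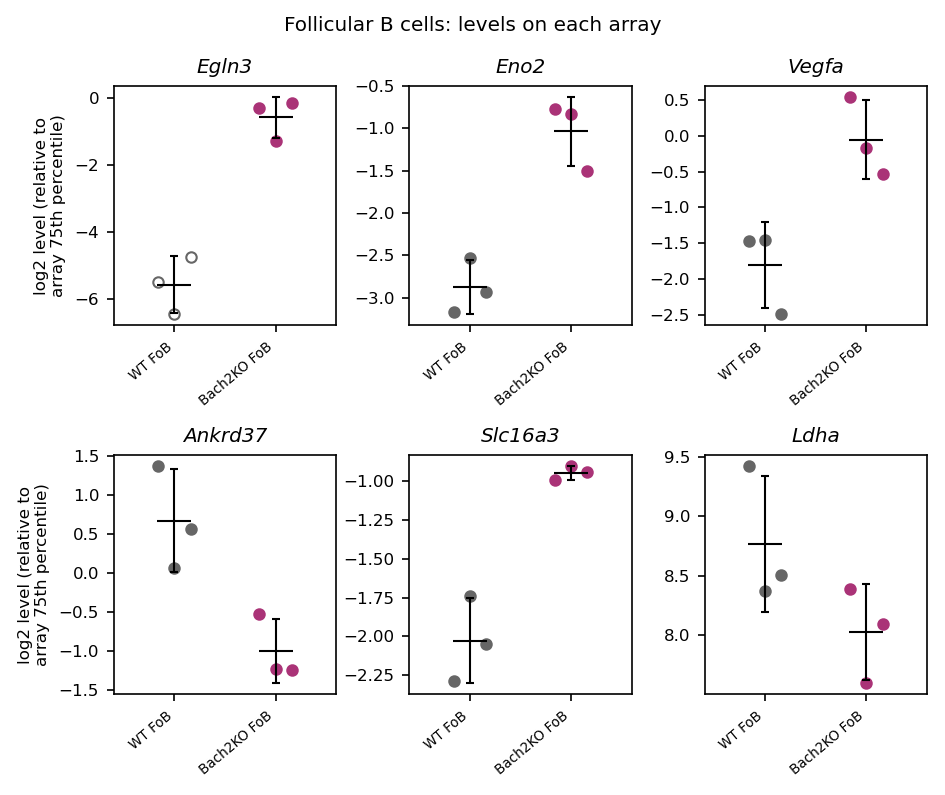
Log2 level (vertical axis, relative to the array's 75th percentile) of Egln3, Eno2, Vegfa, Ankrd37, Slc16a3 and Ldha on each WT and Bach2KO FoB array (points; open points are not well above background), with the mean and SD of each group (horizontal line and bar). The 3 WT points of Egln3 are open and lie between -6.47 and -4.76, and all 3 Bach2KO points lie at -1.29 or above.

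Hif1a itself was at 1.46 ± 0.31 in WT and 1.63 ± 0.34 in Bach2KO FoB (0.17, SE 0.33, adjusted p = 0.868), and Egln1, the main oxygen-sensing hydroxylase, at -2.04 ± 0.14 and -2.53 ± 0.34 (-0.49, SE 0.31, adjusted p = 0.652). Glucose transport did not pass either: Slc2a1 (GLUT1) differed by 0.40 (SE 0.49, adjusted p = 0.786) and Slc2a3 (GLUT3) by -0.53 (SE 0.40, adjusted p = 0.691). Outside the members none of 13 other glycolysis genes, 19 other hypoxia-response genes, 10 HIF pathway regulators and 23 genes of pyruvate entry and the TCA cycle passed by limma, and 1, 3, 0 and 3 of them in that order had an unadjusted p under 0.05. Some markers of other cells moved between the genotypes. The 8 erythroid markers summed to 0.71 to 2.08 in WT and 3.09 to 4.20 in Bach2KO FoB, with the haemoglobin gene Hba-a1 at -0.62 ± 1.40 and 3.11 ± 1.20, and 5 to 6 of the 8 well above background in WT and 6 in Bach2KO. Of 6 erythroid markers tested all lay higher and 2 passed. The 10 neutrophil markers summed to 0.66 to 4.06 in WT and 3.47 to 5.64 in Bach2KO FoB, ranges that overlapped. Of 7 neutrophil markers tested 6 lay higher and none passed. Of 9 B-lineage markers tested 8 lay lower and 1 of these passed. The part of these markers in the Egln3 and Eno2 differences was not tested.

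The B220+ cells were compared with control-vector MPPs, which differ in vector, culture and time. Here 4 hypoxia or regulatory members rose and 4 glycolytic or HIF-pathway members fell, 8 of 33, beside 12.1% of all 16991 genes that passed (4.65% higher and 7.45% lower). The 4 that rose were Vegfa, Pfkfb4, Ankrd37 and Ndrg1, and the 4 that fell Slc2a1, Aldoa, Egln3 and Pkm. Of all 33, 10 lay higher and 23 lower, beside 5807 and 11184 of all genes, with a median of -0.35 beside -0.29. Against Bach2-vector MPPs, with which the B220+ cells share the vector, Vegfa, Pfkfb4, Ankrd37 and Ndrg1 rose and Slc2a1 fell, 5 of 33 beside 6.17% of all genes (2.01% higher and 4.16% lower). The 2 comparisons share the B220+ arrays. Quantile normalization moved the median of all genes from -0.29 to -0.06 against the control vector and from -0.25 to -0.05 against the Bach2 vector, and the genes called from 790 higher and 1266 lower to 1005 and 986, and from 341 and 707 to 470 and 545. With it 7 and 4 members passed, Pkm and Slc2a1 respectively dropping out. The B220+ and control-vector arrays did not overlap for 4 members on the higher side, beside 11% of all genes, and for 13 on the lower, beside 23.5%. From the Bach2-vector arrays they were separate for 6 on the higher side, beside 7.46%, and 5 on the lower, beside 21.7%.

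Vegfa was at 3.90, 4.50 and 3.73 in the B220+ cells, above 1.57, 1.36 and 1.20 in control-vector and 1.16, 1.08 and 1.66 in Bach2-vector MPPs. The difference was 2.67 (SE 0.29, adjusted p = 6.9e-04) against the control vector and 2.74 (adjusted p = 9.9e-04) against the Bach2 vector. Its 2 probes did not give the same size: the second, also well above background on every one of these arrays, gave 0.41 and 0.77. The 2 probes carry different RefSeq transcript accessions of a gene with many isoforms, and the cause of the gap was not tested. Their mean gave 1.54 and 1.76, which still passed.

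Pfkfb4, a kinase of the phosphofructokinase activator fructose 2,6-bisphosphate, was at 2.75, 2.82 and 1.81 in the B220+ cells, 0.78, 0.59 and 0.21 in control-vector and 0.75, 0.10 and -0.01 in Bach2-vector MPPs. All 3 B220+ values lay above all 6 MPP values. The difference in means was 1.93 (SE 0.35, adjusted p = 0.00815) against the control vector and 2.18 (adjusted p = 0.00817) against the Bach2 vector. On none of these arrays did its other probe exceed background, and the call was lost where the probes of a gene were averaged (adjusted p = 0.108 and 0.131). In WT CLPs Pfkfb4 read 2.15, 2.58 and 1.83, a level not tested against the B220+ cells. Ankrd37 was at 3.14, 3.52 and 3.20 in the B220+ cells against 1.53 to 1.97 and 0.91 to 1.91 in the MPP groups (1.59, SE 0.31, adjusted p = 0.0110, and 1.77, adjusted p = 0.0119), and without control-vector replicate 2 the first call was lost (1.53, adjusted p = 0.0522). Ndrg1, a stress-response gene raised by low oxygen, was at 4.05, 4.56 and 4.74 against 3.02 to 3.75 and 3.19 to 3.38 (1.01, SE 0.28, adjusted p = 0.0483, and 1.17, adjusted p = 0.0436). The Ndrg1 calls were close to the threshold and were lost in 9 of 18 alternatives against each MPP group. The mitophagy receptor genes Bnip3 and Bnip3l (0.20, SE 0.40, and -0.22, SE 0.26) and the collagen hydroxylase gene P4ha1 (-0.17, SE 0.34) did not pass against the control vector.

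The promoter windows of Pfkfb4 and Ankrd37, which rose, and of Slc2a1, which fell, are set side by side because all 3 hold matches to the same core letters while their levels moved in opposite directions. Capitals again mark ACGTG or GCGTG on either strand, with letters and coordinates from RefSeq on GRCm38.p6.
Pfkfb4 (chr9:108991652-108991901, plus strand): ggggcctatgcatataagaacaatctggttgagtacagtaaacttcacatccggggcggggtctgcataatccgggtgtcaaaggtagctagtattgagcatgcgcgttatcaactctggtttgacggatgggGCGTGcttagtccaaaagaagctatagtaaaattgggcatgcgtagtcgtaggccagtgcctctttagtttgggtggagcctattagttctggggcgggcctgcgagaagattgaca
Ankrd37 (chr8:45999851-46000100, minus strand): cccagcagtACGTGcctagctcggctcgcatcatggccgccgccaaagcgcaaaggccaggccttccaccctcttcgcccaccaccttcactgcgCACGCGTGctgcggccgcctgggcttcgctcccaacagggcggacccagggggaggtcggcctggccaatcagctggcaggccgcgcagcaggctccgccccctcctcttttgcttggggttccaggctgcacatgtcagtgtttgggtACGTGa
Slc2a1 (chr4:119108495-119108744, plus strand): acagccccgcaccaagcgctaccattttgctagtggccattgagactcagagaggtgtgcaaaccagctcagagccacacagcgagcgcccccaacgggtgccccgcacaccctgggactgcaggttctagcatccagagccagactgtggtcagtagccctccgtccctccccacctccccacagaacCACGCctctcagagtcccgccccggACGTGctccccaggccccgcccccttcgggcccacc
Matches numbered 1 in Pfkfb4, 4 in Ankrd37 and 2 in Slc2a1. These 3 genes were picked after their levels were seen, and windows of the other called members are not set beside them. Since 27 of the 30 members with a window held a match, sharing one says nothing about direction.

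Slc2a1 (GLUT1), the basal glucose transporter, had a step in each group: 4.75, 4.34 and 4.26 in control-vector MPPs, 4.02, 3.69 and 3.98 in Bach2-vector MPPs and 2.99, 2.72 and 2.96 in the B220+ cells. No array of one group overlapped with another. It fell by 1.56 against the control vector (SE 0.24, adjusted p = 0.00374) and by 1.01 against the Bach2 vector (SE 0.24, adjusted p = 0.0415), while the step between the 2 vectors did not pass (-0.55, SE 0.24, adjusted p = 0.539). The call against Bach2-vector MPPs was lost in 9 of 18 alternatives. Aldoa was at 6.86, 6.88 and 6.72 in control-vector MPPs and 5.41, 4.67 and 5.54 in the B220+ cells (-1.61, SE 0.29, adjusted p = 0.00825). Egln3 went from 3.44, 3.04 and 2.90 to 1.93, 1.52 and 1.21 (-1.57, SE 0.32, adjusted p = 0.0134), with its second probe at -1.62. Pkm, pyruvate kinase, went from 5.43, 5.29 and 5.10 to 4.52, 4.35 and 4.09 (-0.96, SE 0.25, adjusted p = 0.0384), a call lost in 9 of 18 alternatives. Against Bach2-vector MPPs these 3 did not pass: the differences were -0.78 (adjusted p = 0.152), -0.70 (adjusted p = 0.217) and -0.09 (adjusted p = 0.851).

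Among the 8 second-stage enzymes and lactate dehydrogenases 7 lay lower in the B220+ cells than with the control vector. So did 11184 of all 16991 genes. Only 1 of the 7 passed, Pkm. Pgam1 differed by -0.65 (SE 0.23, adjusted p = 0.104), and Gapdh by -0.19 (SE 0.20, adjusted p = 0.555). The other 6 Gapdh probes, all well above background on these arrays, gave -1.01 to -0.43. Hif1a was at 2.14 to 2.77 in control-vector MPPs and 0.65 to 1.76 in the B220+ cells (-1.43, SE 0.43, adjusted p = 0.0616), and Slc16a1, the lactate transporter MCT1, at -3.10 to -2.61 and -3.95 to -3.62 (-0.95, SE 0.27, adjusted p = 0.0543). All 3 B220+ arrays were on slide 1 with 1 array of each MPP group. With the slide as a block all 8 members still passed against the control vector and all 5 against the Bach2 vector. Within slide 1 the differences from the control vector were 2.47 for Vegfa, 1.68 for Pfkfb4, 1.75 for Ankrd37, 1.44 for Ndrg1, -1.86 for Slc2a1, -1.65 for Aldoa, -1.88 for Egln3 and -1.12 for Pkm.

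**Figure D3:**
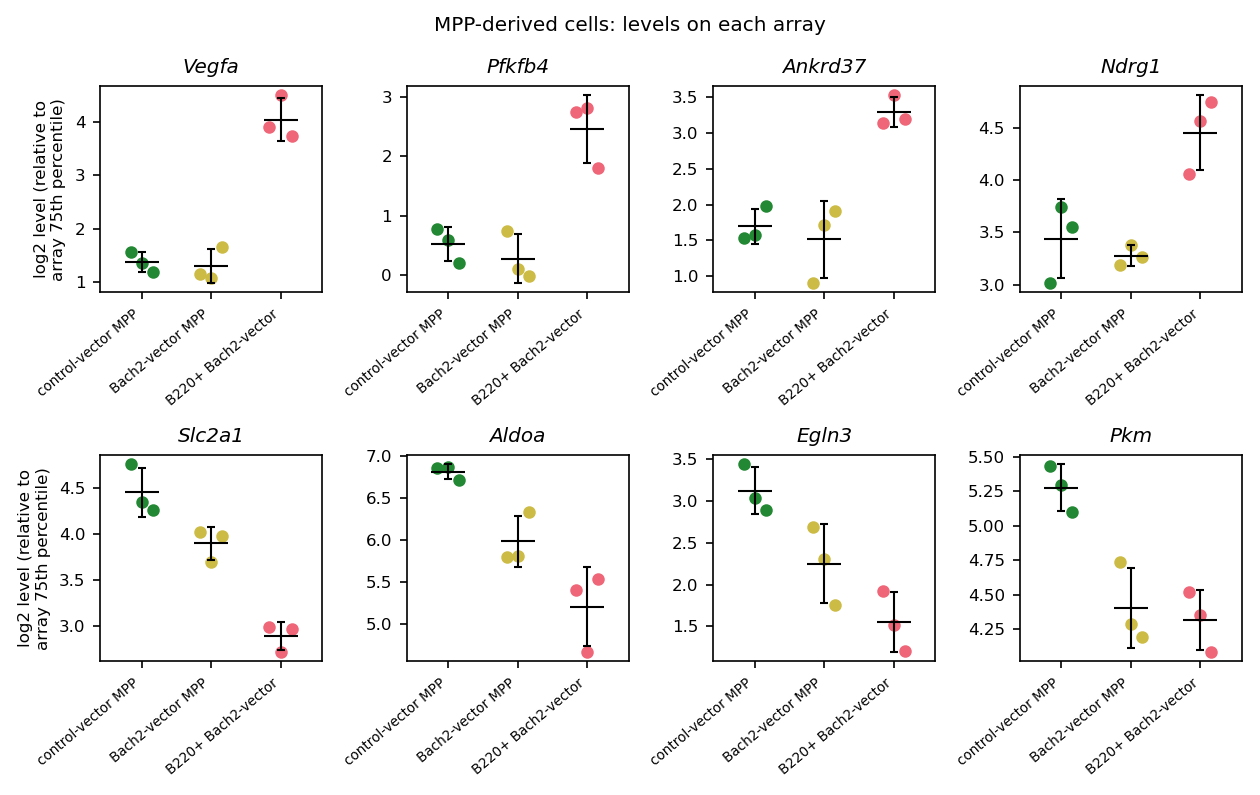
Log2 level (vertical axis, relative to the array's 75th percentile; each panel has its own range) of the 4 genes that rose and the 4 that fell in the B220+ cells, on each array of control-vector MPPs, Bach2-vector MPPs and B220+ Bach2-vector cells (points), with the mean and SD of each group. Vegfa, Pfkfb4, Ankrd37 and Ndrg1 overlap between both MPP groups and are higher in the B220+ cells, whereas Slc2a1 has no overlap between any of the 3 groups.

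Other genes of the pathway also went both ways in the B220+ cells against control-vector MPPs. In this paragraph only genes that passed are counted as having risen or fallen. Of 19 other glycolysis and glucose genes 2 rose and 2 fell, among them Hk3, the hexokinase of myeloid cells (-2.62, SE 0.27, adjusted p = 6.1e-04), and Tigar, a brake on glycolysis (-1.64, SE 0.29, adjusted p = 0.00691). Of 23 other hypoxia-response genes 1 rose and 3 fell, led by Car12, a carbonic anhydrase (-2.45, SE 0.32, adjusted p = 0.00170). Of 13 HIF pathway regulators 1 rose, Txnip, which limits glucose uptake (1.51, SE 0.32, adjusted p = 0.0165), and 2 fell, Mycn with the smaller p (-3.24, SE 0.62, adjusted p = 0.0102). Of 24 genes of pyruvate entry and the TCA cycle 2 fell and none rose. None of 15 cell-cycle genes passed by limma, 1 had an unadjusted p under 0.05, and 13 lay lower, beside 11184 of all 16991 genes. The T and NK markers summed to 4.78 to 5.81 in the B220+ cells, 3.77 to 4.64 in Bach2-vector and 0.89 to 1.91 in control-vector MPPs, and 3 of 7 rose against the control vector. The 8 CLP and progenitor markers summed to 6.92 to 7.21 in the B220+ cells, 6.15 to 6.85 and 5.53 to 6.20 in the MPP groups in the same order, and 4 rose against the control vector. Against Bach2-vector MPPs 2 of 8 monocyte and macrophage markers rose, with sums of 5.07 to 5.32 against 4.03 to 4.58, and of 10 neutrophil markers 2 rose and 1 fell, with sums of 8.38 to 8.68 against 8.13 to 8.46. The part of these markers in the differences of the B220+ cells was not tested.

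The Bach2 vector was set against the control vector in MPPs after the same culture. No member passed by limma, beside 1.8% of all genes (1.07% higher and 0.724% lower), and 5 of 33 had an unadjusted p under 0.05, beside 8.66%. Most lay lower, 26 against 7, with a median of -0.18 beside -0.02 over all genes, and 7 did not overlap on the lower side, beside 7.29% of all genes, and 0 on the higher side, beside 7.66%. The 4 with the smallest p were Pkm (-0.87, SE 0.25, adjusted p = 0.178), Aldoa (-0.83, SE 0.29, adjusted p = 0.335), Egln3 (-0.87, SE 0.32, adjusted p = 0.368) and Slc2a1 (-0.55, SE 0.24, adjusted p = 0.539). The control-vector arrays are those used for the B220+ cells above. Pkm was at 5.10 to 5.43 with the control vector and at 4.74, 4.29 and 4.19 with the Bach2 vector. Aldoa was at 6.72 to 6.88 and at 5.80, 5.81 and 6.34. Within slide 1 the differences of Pkm, Aldoa, Egln3 and Slc2a1 were -0.70, -1.05, -0.75 and -0.73, and within slide 2 they were -0.95, -0.72, -0.93 and -0.46. Vegfa differed by -0.08 (SE 0.29) and Pfkfb4 by -0.24 (SE 0.35). Markers of other cells moved with the vector. All 8 monocyte and macrophage markers lay lower with the Bach2 vector, 2 of them passing, with a median of -1.70 and sums of 4.03 to 4.58 against 4.67 to 5.27. Of 10 neutrophil markers 9 lay lower and 1 of them passed (sums of 8.13 to 8.46 against 8.59 to 8.69). Of 7 T and NK markers tested 6 lay higher and 1 of them passed (sums of 3.77 to 4.64 against 0.89 to 1.91). Their part in the members' differences was not tested.

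Outside the members, 3 genes of the pathway lists passed with the Bach2 vector. Hk3 fell from 4.47, 5.26 and 5.31 to 1.18, 1.43 and 1.17 (-3.75, SE 0.27, adjusted p = 0.00113), while neither hexokinase among the members passed, Hk1 at -0.15 (SE 0.27) and Hk2 at -0.14 (SE 0.36). Hk3 is a myeloid gene, and it lay lower together with the monocyte, macrophage and neutrophil markers just given, whose part in its difference was not tested. Slc2a6, a GLUT-family transporter, rose 2.83-fold (adjusted p = 0.0387). Bhlhe40, a repressor induced by hypoxia among other signals, rose by 1.60 (SE 0.33, adjusted p = 0.0484), and fell by 3.22 in the B220+ cells against Bach2-vector MPPs (SE 0.33, adjusted p = 9.5e-04).

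In CLPs the loss of both Bach1 and Bach2 was examined. No member passed by limma, beside 0.00607% of all 16466 genes (1 gene), and 1 of 33 had an unadjusted p under 0.05, beside 3.76%. The 4 with the smallest p were Ankrd37 (1.05, SE 0.39), Hif1a (-1.06, SE 0.47), Aldoa (0.82, SE 0.38) and Eno1 (0.70, SE 0.34), all with an adjusted p of 0.999. Ankrd37 was at 0.93, 0.84 and 0.08 in WT and 1.81, 1.92 and 1.26 in DD CLPs. Aldoa was at 3.96, 4.60 and 4.44 in WT and 4.65, 5.31 and 5.49 in DD CLPs, and Eno1 at 4.60 to 4.91 and 5.24 to 5.87. These 3 and Egln3, at 0.75 to 1.10 and 1.36 to 1.52, did not overlap on the higher side, 4 members beside 4.93% of all genes, and 0 on the lower side, beside 2.98%. Hif1a, at -0.20, 0.80 and 1.15 in WT and -1.06, -0.45 and 0.07 in DD CLPs, overlapped. Each of the 3 slides held 1 array of each genotype, and within slides 1, 2 and 3 Ankrd37 differed by 0.89, 1.09 and 1.18 and Hif1a by -0.86, -1.25 and -1.08. With a replicate block, equal to a slide block in these 6 arrays, their adjusted p were 0.517 and 0.521. None of the 5 pathway lists held a gene that passed by limma, and 1 gene of the 5, Mxi1, had an unadjusted p under 0.05 (-2.40, SE 0.70, adjusted p = 0.999). All 9 B-lineage markers tested lay lower in DD CLPs, beside 7627 of all genes, with sums of 4.63 to 5.57 against 4.77 to 5.38. Of 9 neutrophil markers tested 7 lay higher, beside 8839 of all genes, with sums of 5.26 to 6.43 against 5.01 to 6.21. No marker of these 2 lists passed, and their part in the members' differences was not tested.

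More members passed between the controls of the 2 progenitor experiments than in the other 5 comparisons. These controls, cultured control-vector MPPs and sorted WT CLPs, shared no slide; cell type, culture, infection and slide cannot be told apart there. Of 33 members 13 passed higher in the MPPs and 2 passed lower, beside 14.8% and 11.8% of all 16729 genes. By sign alone 26 lay higher and 7 lower, beside 9807 and 6922 of all genes. The median difference was 0.77 beside 0.19. The groups did not overlap for 19 members on the higher side, beside 25.8% of all genes, and for 4 on the lower, beside 18.5%. Transport was higher for Slc16a3 (3.28, SE 0.48), Slc2a1 (2.17, SE 0.28) and Slc2a3 (1.18, SE 0.38, adjusted p = 0.04997). In the first stage Pfkp, the platelet-type phosphofructokinase, went from -0.87, -0.38 and 0.02 to 3.22, 3.04 and 2.69 (3.39, SE 0.33, adjusted p = 2.4e-04). Its second probe gave 1.38, and their mean 2.39 (adjusted p = 4.8e-04). Pfkm did not pass, at 1.95 ± 0.11 and 1.55 ± 0.40. Hk2, Aldoa and Tpi1 were higher there too. In the second stage Pkm (2.63, SE 0.32), Eno1 (1.73, SE 0.27) and Pgam1 (1.20, SE 0.32) were higher.

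Lactate dehydrogenase subunits parted. Ldhb was lower in the MPPs, from 3.68, 4.34 and 3.58 to 0.71, 0.84 and 0.97 (-3.03, SE 0.31, adjusted p = 3.0e-04), and Ldha, the subunit that favours lactate, lay 0.89 higher without passing (SE 0.33, adjusted p = 0.0800). The other 2 Ldha probes, well above background on all 6 arrays, gave 2.43 and 2.58, and Ldha passed where the probes of a gene were averaged. So did Gapdh, whose brightest probe gave 0.77 and whose other 6 gave 1.34 to 3.14. Pfkfb4 was lower as well (-1.66, SE 0.32, adjusted p = 0.00658), a call that averaging its probes removed. Hif1a (1.97, SE 0.41), Egln3 (2.15, SE 0.29) and Ankrd37 (1.08, SE 0.33) were higher, and the other 5 hypoxia-response members did not pass, with Ndrg1 at 0.08 (SE 0.32) and Bnip3l at -0.70 (SE 0.30). Vegfa's 2 probes opposed each other here, at -0.43 and 1.49, so no direction is given for it. Slc2a3, Ankrd37, Tpi1 and Pgam1 lost their calls in 3 to 8 of 14 alternatives, and Ankrd37 and Slc2a3 also with the replicate number as a block (adjusted p = 0.0754 and 0.0520). Of the other lists 8 of 18 glycolysis genes passed higher and 2 lower, with Hk3 at 6.73 (SE 0.50). Of 23 hypoxia-response genes 11 passed higher and 1 lower, with Car12 at 3.51 (SE 0.32). Of 15 cell-cycle genes 5 passed, all higher, and 14 lay higher. Of 24 genes of pyruvate entry and the TCA cycle 5 passed higher and 1 lower, and 23 lay higher. Of 13 HIF pathway regulators 2 passed higher and 1 lower. The 10 neutrophil markers summed to 5.01 to 6.21 in WT CLPs and 8.59 to 8.69 in the MPPs, and their part in these differences was not tested.

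**Figure D4:**
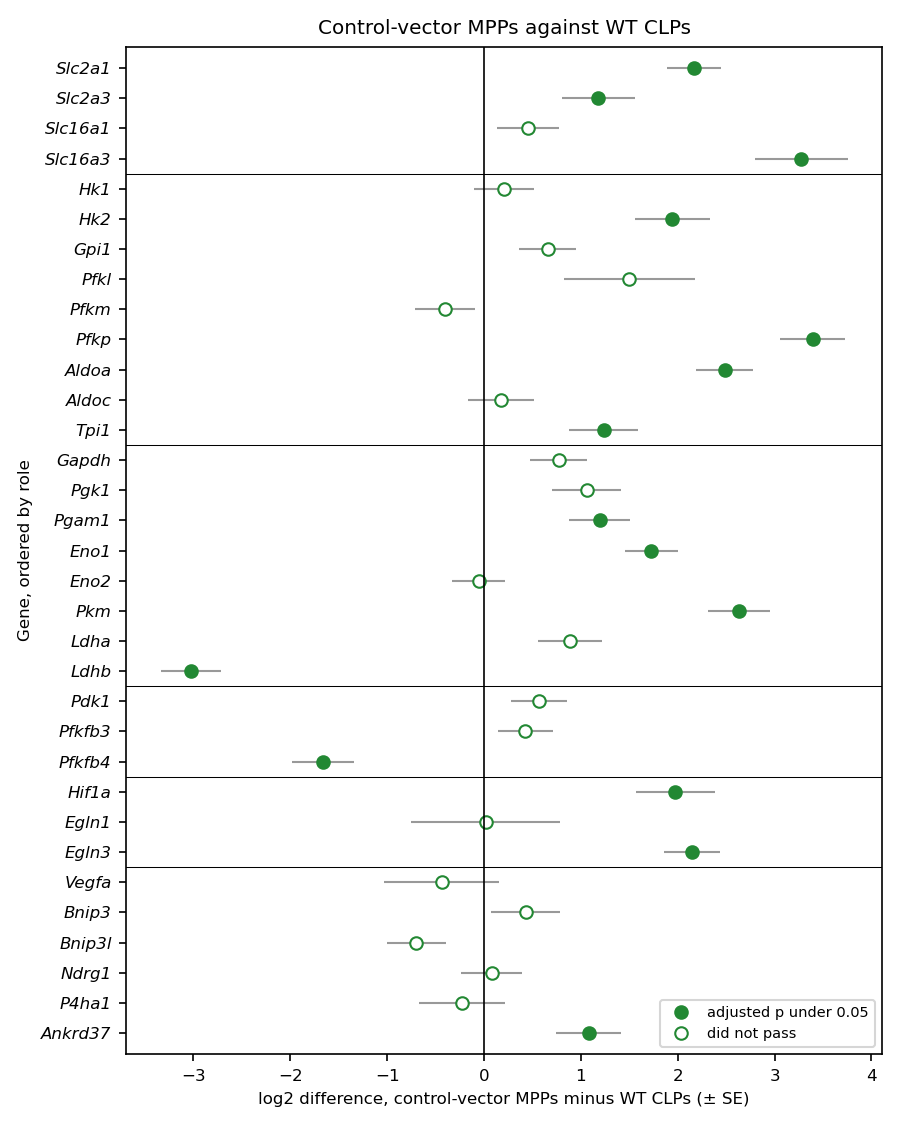
Difference in log2 level between control-vector MPPs and WT CLPs (horizontal axis, with SE bars) for each of the 33 genes, ordered by role. Filled points are the 15 genes that passed, of which 13 lie right of 0 and Ldhb and Pfkfb4 left of it.

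Start-site windows of 30 members were in the RefSeq tables, 44 windows in all, and none was used for Slc2a3, Bnip3l and Ndrg1. ACGTG or GCGTG, on either strand, was found in 79.5% of the 44 windows, covering 27 of the 30 genes, and in 38.6% of all 32851 windows. ACGTG alone was in 47.7% and 16.6%, and GCGTG alone in 54.5% and 28.2%. CACGTG, which contains ACGTG on both strands and is also the E-box of Myc and Max, was in 13.6% and 6.02%. TGANTCA, the core shared by AP-1 sites and the binding sites of Bach factors with small Maf partners, was in 1 of 44 windows, 2.27%, in front of Aldoa, and in 6.75% of all windows. The members' windows were also richer in these letters as a whole: their median GC content was 61.0% with 14 CpG pairs, beside 52.4% and 6 in all windows. The windows of a gene overlap in places, so these shares are descriptions without a test.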

How the data were processed

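Scanner files of 21 arrays were used. Per the file headers they came from Agilent Feature Extraction 10.7.3.1 (9.1 per the submitters' processing notes), and the deposited intensity, the processed signal per spot, is background-subtracted by that software. These intensities equalled 100% of the cells in the series' own value table. Of 62976 spots 3671 were controls, and outlier-flagged spots were left out. Of 55681 probes 26413 were named through RefSeq accessions (20018 symbols) and 29268 were not. The intensity was scaled as stated in the report and tested with limma 3.58.1 in R 4.3.3 (lmFit, eBayes); genes needed 3 arrays of a fit well above background and 2 values a group. The 3 MPP-derived groups shared 1 fit, every other comparison had its own 2 groups. All members are named; differences are given for those that passed and the 4 of smallest p per comparison, and up to 2 genes per pathway list; other differences named in the report were chosen after their values were seen. The members and lists were chosen with earlier results of these data known. Normexp (offset 50) used the spot median signal, since the files hold no mean signal, where the plan named the mean. Other alternatives were quantile normalization, stricter and no filters, averaged probes, a variance trend, the deposited table, replicate and slide blocks, and leaving out each array. Same-numbered arrays deviated together in the CLP comparison (correlations of deviations 0.22 to 0.43), the vector comparison (0.30 to 0.65) and FoB (0.53 to 0.86), but not all above 0.1 for the B220+ cells (-0.06 to 0.13). Scripts were tested on simulated data. Promoter windows are RefSeq's on GRCm38.p6; the arrays were designed on mm9 per the file headers, and no coordinates were taken from them.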

Additional observations from a re-analysis of the deposited data

How the results depend on the processing

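Counts of members that passed kept within 1.5 times of the reported ones under most alternatives. In FoB, where 2 passed, the count was 1 with normexp, 1 with a filter on all arrays (Egln3 is then not tested), 1 without a filter, 11 with the replicate block and 6 with the slide block. Between the B220+ cells and Bach2-vector MPPs, where 5 passed, it was 3 without a filter. Leaving out 1 array gave 0 to 0 members in CLPs, 0 to 0 between the vectors, 5 to 8 for the B220+ cells against the control vector and 3 to 5 against the Bach2 vector, 0 to 2 in FoB (0 without Bach2KO replicate 2 or 3, and Ankrd37 and Eno2 without replicate 1) and 11 to 14 of the 15 between MPPs and CLPs. The replicate block gave 0, 0, 10, 5 and 13 members outside FoB, in the order of the comparisons just named, and for the B220+ cells same-numbered arrays share only a number. Over named members and alternatives, 551 values stayed on the same side of the threshold, 72 lost their call, 5 gained one and 0 reversed. The 551 include values that passed neither in the main fit nor in the alternative. They also include those of the deposited table, which equals the main input and so could not differ. Over all genes, the FoB count of 356 was 123 with normexp, 2980 with the replicate block and 1196 with the slide block; leaving out 1 array gave 0 to 28 genes in CLPs, 96 to 520 between the vectors, 1028 to 2638 and 448 to 1699 for the B220+ cells, 110 to 371 in FoB and 2675 to 4307 between MPPs and CLPs. The 1 gene called in CLPs was lost with quantile normalization and with the replicate block. Quantile normalization moved the median of all genes between MPPs and CLPs from 0.19 to 0.07. Signal over background limits Egln3 in WT FoB and Ldhb in FoB to bounds. The causes of these shifts were not tested.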
